A study of Mus musculus with 2 samples.

Results

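The genes described here are 33 genes known from vascular endothelium, the cell layer that lines blood and lymph vessels. They were taken by name from the GENCODE vM21 basic annotation, where all 33 were found among 21911 protein-coding genes. They comprise receptors for vascular growth factors, Notch and other receptors, adhesion and surface proteins, transcription factors, and secreted, enzymatic or vessel-bed genes.

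Open chromatin was mapped by DNase-seq, in which the nuclease DNase I cuts accessible DNA and the cut ends are sequenced, in undissected adrenal glands from B6CASTF1/J males. This strain name denotes first-generation hybrids of C57BL/6J and CAST/EiJ mice. The animals were 8-10 months old. The 2 samples, replicates 1 and 2, were pools of 6 biosamples each, carried the same donor identifier and gave 1 library each, and there was no treated or control group, so every difference between the pools is given without a test. The authors listed 117371 peaks in replicate 1 and 146307 in replicate 2. In both pools, promoter peaks were found at 9 of 10 markers of cortex steroid cells and 7 of 8 of chromaffin cells, the defining cells of the gland. The share over all protein-coding genes was 61.9%.

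The adrenal cortex and medulla are threaded by dense fenestrated capillaries through which steroid hormones and catecholamines reach the blood. Endothelial cells are kept by VEGF and angiopoietin signalling through receptor tyrosine kinases, by Notch signalling, and by transcription factors of the ETS, SOX and forkhead families, which bind many endothelial enhancers. ETS factors recognise letters around GGAA, SOX factors recognise AACAAT, and a joined forkhead and ETS site described for endothelial enhancers carries the letters AACAGGAA.

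Where they lacked CpG islands, promoters of the endothelial genes were open more often than those of all protein-coding genes. Endothelial promoter peaks were weak, mainly at CpG-rich promoters. A promoter peak is one within 1 kb of any transcription start site (TSS) of the gene, and a gene's promoter signal is the authors' peak value of its strongest promoter peak. Both pools had a promoter peak at 25 of 33 endothelial genes (75.8%), against 61.9% of all protein-coding genes. Because nearly all CpG-rich promoters are open in most tissues, the classes were read apart. All 13 CpG-rich endothelial promoters had a peak in both pools, near the background of 91.8%, whereas 12 of 20 CpG-poor ones (60%) did, against 27.1% of CpG-poor promoters. The glands were not dissected, so fewer endothelial cells and less open chromatin per endothelial cell cannot be told apart in any of these values. A further 79 endothelial genes gave 63 with a promoter peak in both pools (79.7%), with 40 of 46 CpG-rich and 23 of 33 CpG-poor promoters. The higher CpG-poor share was not particular to endothelial genes. Among markers of other cells it was 5 of 6 for cortex, 6 of 7 for chromaffin, 6 of 9 for mural and 6 of 12 for macrophage markers. For fibroblast markers it was 2 of 7, and for blood and platelet markers 3 of 13.

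**Figure D1:**
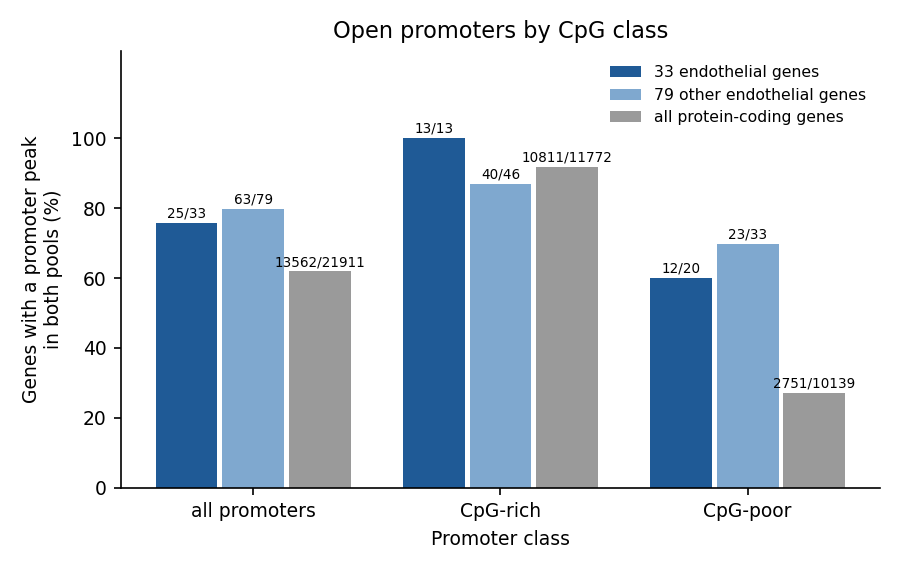
Percent of genes with a promoter peak in both pools (vertical axis) by promoter class (horizontal axis) for the 33 endothelial genes, 79 other endothelial genes and all protein-coding genes, with the counts above the bars. CpG-poor endothelial promoters stand at 60%, against 27.1% of all CpG-poor promoters, while the CpG-rich classes lie close together.

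The 3 VEGF receptor genes, 2 CpG-rich and 1 CpG-poor, were open in both pools, as were 91.8% and 27.1% of those classes. Kdr encodes VEGFR2, the main signalling receptor for VEGF-A, and its CpG-rich promoter had signals of 0.884 and 1.07 in replicates 1 and 2. Flt1, which encodes the decoy-like receptor VEGFR1, had 1.14 and 1.81. Flt4, which encodes VEGFR3 and is used by lymphatic and fenestrated vessels, had 0.684 and 0.951. Replicate 2 was higher at Kdr and Flt1. At Flt4 the strongest peak changed place, from 1010 bp downstream of the TSS in replicate 1 to upstream of it (-227 bp) in replicate 2, and the downstream peak that both pools held was level, at 0.684 and 0.680.

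Among the TIE receptor genes, Tie1, an orphan receptor of endothelium, was the stronger, with 1.90 in replicate 1 and 1.86 in replicate 2 from a single peak just inside the gene. Tek, which encodes the angiopoietin receptor TIE2, had no promoter peak in replicate 1 and one of 0.536 in replicate 2. The authors' table of false discovery rates (FDR) per base, which lists only values under 0.05, held 22 bases of the Tek promoter windows in replicate 1 and 280 in replicate 2, so replicate 1 was not without listed bases there. Ptprb encodes VE-PTP, the phosphatase that restrains TIE2, and had 0.862 and 1.11. Its peak lay at the downstream of 2 TSSs, which is CpG-rich, and the upstream TSS had none in either pool.

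Both Notch genes, 1 CpG-rich and 1 CpG-poor, were open in both pools, as were 91.8% and 27.1% of those classes. Their signals were nearly the same in the pools. Notch4, the endothelial Notch receptor, had 1.16 and 1.24, and Dll4, the Notch ligand of tip cells and arteries, had 1.34 and 1.24. The Dll4 peak also lay within 1 kb of a TSS of Gm14207, a neighbouring gene model, so it is shared by both.

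Of the other receptors, Robo4, an endothelial guidance receptor, had 1.24 in replicate 1 and 1.16 in replicate 2, but these came from a peak centred upstream, at -1116 and -1106 bp from the TSS, and the peak over the TSS was weaker, at 0.996 and 0.775. Eng encodes endoglin, a co-receptor for BMP ligands, and had 1.17 and 0.951. S1pr1, the receptor for sphingosine 1-phosphate that steadies the endothelial barrier, had 1.03 and 1.09, and its peak was shared with Gm9889. Ecscr, a small endothelial surface protein gene, had none in replicate 1 and 0.448 in replicate 2, with 0 and 193 listed FDR bases.

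Adhesion and surface genes were open in both pools in 6 of 7 cases. By class it was 5 of 6 CpG-poor genes, against 27.1% of CpG-poor promoters, and the 1 CpG-rich gene, against 91.8%. Esam, an endothelial tight-junction-associated molecule, had 1.43 and 1.34, and Icam2, a leukocyte ligand, had 1.35 and 1.31 from a peak 760 and 680 bp inside the gene. Cdh5 encodes VE-cadherin, the defining adherens junction protein of endothelium, and had 1.05 in replicate 1 and 0.775 in replicate 2. Cd34, a sialomucin also made by blood progenitors, had 0.624 and 0.807, and Emcn, a capillary and venous sialomucin, had 0.528 and 0.664. Cldn5, the claudin of barrier endothelium, was weak and did not repeat in position: a peak of 0.513 lay at -105 bp from the TSS in replicate 1, whereas in replicate 2 peaks of 0.320 and 0.272 lay at -776 and 726 bp. Pecam1, which encodes the junctional protein CD31, had no promoter peak at any of its 5 TSSs in either pool and 0 listed FDR bases in both.

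All 7 transcription factor genes were CpG-rich and open in both pools, as were 91.8% of CpG-rich promoters in the genome. Ets1, an ETS factor gene also used in lymphocytes, was the strongest of the 33 genes with 4.85 in replicate 1 and 6.32 in replicate 2. Sox7 had 1.20 and 1.48, Sox18 had 0.892 and 0.799, and Sox17 had 0.334 and 0.504. These 3 SOX genes act together in vessel formation, and Sox17 is the arterial one. Tal1, a basic helix-loop-helix factor gene of blood and endothelium, had 0.892 and 0.935. Fli1, another ETS factor gene, had 0.721 and 0.703, spread over 2 peaks in replicate 1 and 6 in replicate 2. Erg, the ETS factor gene most tied to endothelial identity, was among the weakest at 0.282 and 0.520. Erg has 6 TSSs and counts as CpG-rich only through the most upstream one, which had no peak in replicate 1 and one of 0.240 in replicate 2, while the other peaks lay at CpG-poor TSSs. Its strongest peak was at a different TSS in each pool, and the peak that both pools shared had 0.282 and 0.40.

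Of the secreted, enzymatic and vessel-bed genes, 2 of 7 were open in both pools; 6 of the 7 are CpG-poor, and 1 of those 6 was open, against 27.1% of CpG-poor promoters. Egfl7, a secreted vessel protein gene that also hosts a microRNA, had 1.81 and 1.55, from a peak at an internal CpG-poor TSS. Plvap encodes the protein of fenestral diaphragms, a feature of adrenal capillaries, and had 0.721 and 0.839 from a narrow peak at -108 and -110 bp. Mmrn2, an endothelial matrix protein gene, had none in replicate 1 and 0.424 in replicate 2, and that peak was also within 1 kb of a TSS of Sncg. Lyve1, a hyaluronan receptor of lymphatic vessels that some macrophages make too, went the other way, with 0.334 in replicate 1 and none in replicate 2. Vwf, the von Willebrand factor gene, Gpihbp1, whose protein carries lipoprotein lipase across capillaries, and Nos3, the endothelial nitric oxide synthase gene, had no promoter peak in either pool.

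**Figure D2:**
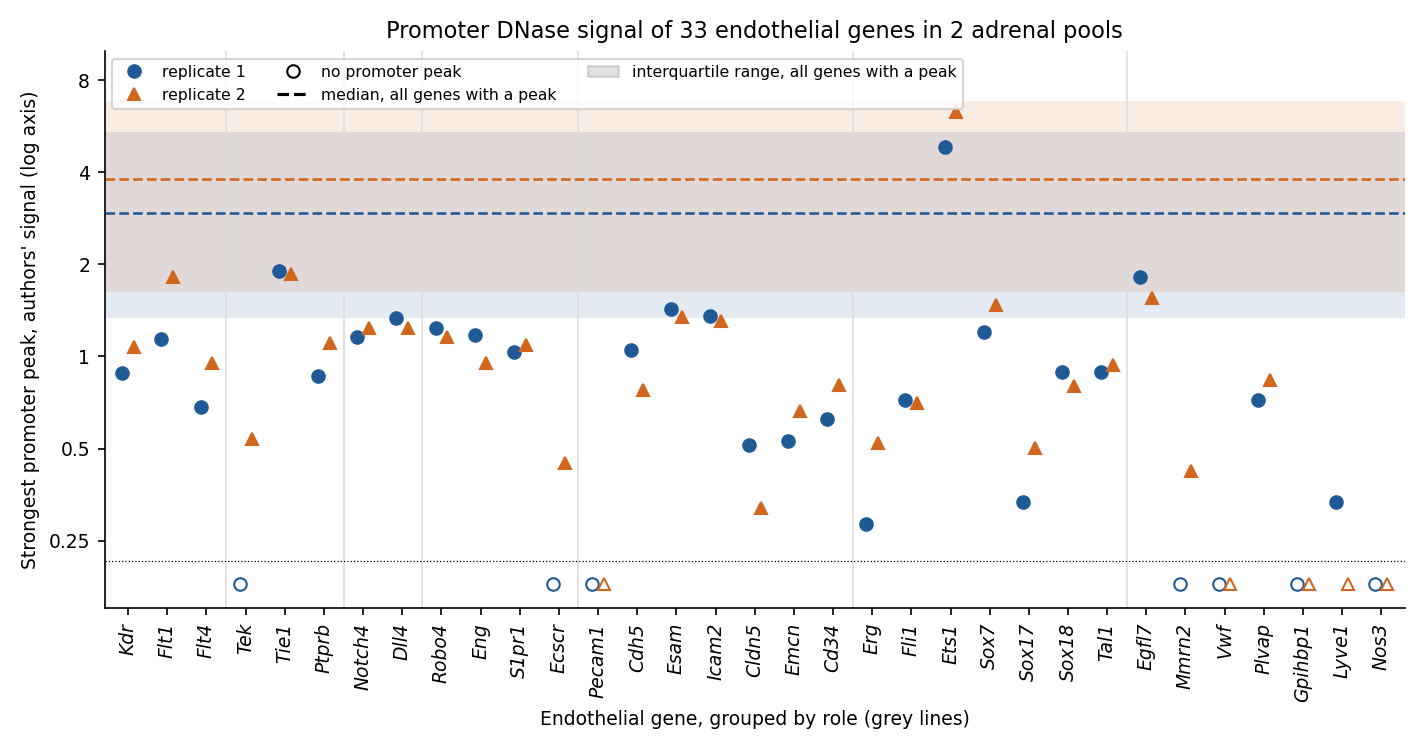
Signal of the strongest promoter peak (log axis, authors' units) of each endothelial gene in replicate 1 (circles) and replicate 2 (triangles), ordered by role, with open symbols at the foot for genes with no promoter peak. Dashed lines and bands are the median and the interquartile range over all genes with a promoter peak in each pool; Ets1 alone lies above the median lines of 2.94 and 3.81.

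At the 4 genes open in neither pool the FDR table was as sparse as the peak lists. It held 0 bases in both pools for Vwf and Pecam1, 2 and 0 for Gpihbp1, and 5 and 0 for Nos3. Some listed base was present in both pools at 26 of the 33 genes (78.8%), against 62.8% of all protein-coding genes. The absence of a peak is a statement about these lists at their depth, not about endothelial cells, which are a part of the gland.

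Promoter signals were low for the genome. Over the genes with a peak, the endothelial median was 0.962 in replicate 1 (26 genes) and 0.951 in replicate 2 (28 genes), against 2.94 and 3.81 over all genes with a promoter peak, and 25 of 26 and 27 of 28 lay below those medians. The gap was wider for CpG-rich promoters. Their endothelial medians were 0.892 and 1.07 against 3.55 and 4.67 for their class, at median percentiles of 9.87 and 9.90. CpG-poor endothelial promoters had medians of 1.05 and 0.951 against 1.16 and 1.32, at median percentiles of 46.1 and 39.4. Of these, 7 of 13 and 13 of 15 lay below the median of their class. With the shorter of the authors' peak lists 16 of 33 genes (48.5%) were open in both pools, below the background of 56.7%, and a footprint, a short protected stretch called by the authors, lay in the promoter peaks of both pools at 19 genes (57.6%), near the background of 59.5%. Promoter peaks of the endothelial genes held 8.85 and 8.62 footprints per kb, against 11.8 and 11.3 over all promoter peaks.

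Replicate 2 had more promoter signal than replicate 1 at most genes of the genome, but at many endothelial genes it did not. Signal was lower in replicate 2 at 11 of 25 endothelial genes (44%), against 4.55% of all genes with a promoter peak in both pools. The 11 were Tie1, Dll4, Robo4, Eng, Cdh5, Esam, Icam2, Cldn5, Fli1, Sox18 and Egfl7. The median log2 ratio of replicate 2 over replicate 1 was 0.07 (SD 0.36 over 25 genes), against 0.38 over all genes (SD 0.24). Low peaks scatter more, so genes of like level were also compared: with a geometric mean signal of 0.5 to 2 the median was 0.07 for 21 endothelial genes, of which 10 were lower in replicate 2, and 0.44 for all such genes, of which 9.09% were. By class, 4 of 13 CpG-rich endothelial genes were lower against 2.02% of their class, and 7 of 12 CpG-poor ones against 14.5%.

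By role, the genes lower in replicate 2 were 0 of 3 VEGF receptor genes, 1 of 2 TIE receptor and phosphatase genes, 1 of 2 Notch genes, 2 of 3 other receptor genes, 4 of 6 adhesion and surface genes, 2 of 7 transcription factor genes and 1 of 2 of the last group. Among the adhesion genes Cdh5 (-0.43), Cldn5 (-0.68), Esam (-0.09) and Icam2 (-0.04) were lower, and Emcn (0.33) and Cd34 (0.37) were higher. At 4 genes, Flt4, Cldn5, Erg and Sox17, the strongest promoter peaks of the pools did not overlap, so their ratios compare different places. They include the lowest ratio, Cldn5, and the highest, Erg at 0.88. Over the 21 genes whose strongest peaks overlapped, the ratio ran from -0.43 at Cdh5 to 0.67 at Flt1 with a median of 0.07, and 10 were lower in replicate 2 (47.6%), against 4.27% of all such genes, whose median was 0.38.

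The 79 other endothelial genes had a median ratio of 0.35, with 9 of 63 (14.3%) lower in replicate 2. Over all genes with a promoter peak in both pools the median was 0.38, and 4.55% were lower. Among the highest promoter signals were those of Ehd4, an endocytic ATPase gene (8.98 and 12.6), Klf2, a flow-responsive factor gene (6.05 and 6.46), and Ephb4, a venous receptor gene (5.92 and 7.02). Ushbp1 (7.22 and 7.99), Hey2 (5.77 and 8.33), Rgcc (6.58 and 7.21), Foxc1 (4.55 and 6.20) and Smad6 (4.94 and 5.24) complete the 8 highest. The 12 without a promoter peak in either pool were Acvrl1, Angpt2, Aplnr, Arhgef15, Bmp4, Car4, Gpr182, Jag2, Meox2, Sele, Selp and Stab2. They include the selectin genes of inflamed vessels, Sele and Selp, and a scavenger receptor gene of sinusoids, Stab2.

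Markers of other cells also differed between the pools. Of 12 macrophage markers 6 had a promoter peak in both pools, with a median ratio of -0.27 and 4 of 6 lower in replicate 2. All 12 are CpG-poor. Of that class, 27.1% had a promoter peak in both pools, and 14.5% of those were lower in replicate 2. The promoter signal summed over all 12, with missing peaks counted as 0, was 4.30 in replicate 1 and 3.41 in replicate 2. The first sum includes Spi1, which had 0.669 in replicate 1 and no peak in replicate 2. For the 33 endothelial genes the sums were 29 and 32.8, for the 79 others 137 and 178, and over all genes 52594 and 66903. The sum was also higher in replicate 2 for cortex, chromaffin, mural, fibroblast and blood and platelet markers. With the shorter peak list, none of the 12 macrophage markers was open in both pools, against 21.3% of CpG-poor promoters. Adgre1, Csf1r, Fcgr1, Aif1 and Tyrobp had no promoter peak in either pool. Median ratios were 0.11 for 6 mural cell markers, 0.25 for 3 blood and platelet markers, 0.67 for 3 fibroblast markers, 0.23 for 9 cortex markers and 0.44 for 7 chromaffin markers. Whether cell makeup, vessel content or depth took part in the endothelial ratios was not tested.

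**Figure D3:**
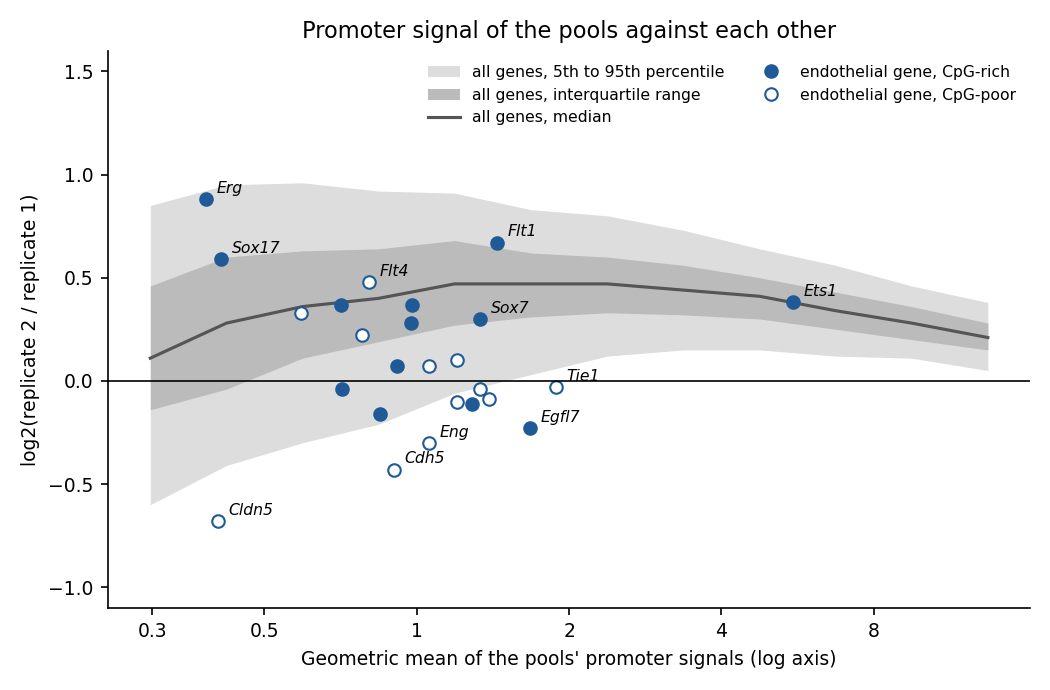
Log2 of promoter signal in replicate 2 over replicate 1 (vertical axis) against the geometric mean signal (log axis) for 25 endothelial genes (filled circles CpG-rich, open circles CpG-poor), over the spread of all genes with a promoter peak in both pools (grey). The all-gene median stays above 0 throughout, while 11 of the 25 genes fall below 0.

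The promoter sequences of the open genes carried SOX letters more often than other promoters. Within 75 bases of the midpoint of the strongest promoter peak, AACAAT on either strand was found at 5 of 25 endothelial genes (20%) and at 1.70% of all promoters with a peak in both pools. In the CpG-rich class it was 2 of 13 against 1.40%, and in the CpG-poor class 3 of 12 against 2.87%. The windows of Ptprb, Robo4, Emcn and Fli1, 4 of these 5, are shown because they are matches behind this share. All sequences are of the C57BL/6J reference (RefSeq GRCm38.p6, the build mm10), and the CAST allele was not examined. Capitals mark the letters AACAAT, with 30 bases on each side.
Fli1, chr9:32541674-32541739, plus strand: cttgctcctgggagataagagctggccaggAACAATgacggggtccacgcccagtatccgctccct
Emcn, chr3:137340998-137341063, plus strand: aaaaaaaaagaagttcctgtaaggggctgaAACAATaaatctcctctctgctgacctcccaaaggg
Robo4, chr9:37400703-37400768, plus strand: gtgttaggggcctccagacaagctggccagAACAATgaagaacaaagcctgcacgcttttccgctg
Ptprb, chr10:116301305-116301370, minus strand: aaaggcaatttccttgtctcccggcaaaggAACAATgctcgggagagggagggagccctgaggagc

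Among the 4 windows shown, a footprint overlapped the capitals at Fli1 in replicate 2 and at none of the other 3 in either pool. The ETS letters CCGGAA, which lie in 19.9% of all promoters with a peak in both pools, were in none of the 25 endothelial windows, of which 13 were CpG-rich (22.4% of that class) and 12 CpG-poor (10.4%). The other ETS letters went the opposite way on small counts. ACAGGAA was in 2 of the 25 (8%) against 3.65%, and AACAGGAA in 1 (4%) against 1.18%. CCGGAA or ACAGGAA was in 2 (8%) against 22.7%.

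Each endothelial gene was also surrounded by open regions away from promoters. A shared distal region holds a peak of each pool and lies over 1 kb from every annotated TSS; it is counted for a gene if it lies within 50 kb of a TSS of that gene. All 33 genes had at least 1, against 83.7% of protein-coding genes, and the median was 7 (range 2 to 10), against 3 over all genes. In the CpG-rich class the medians were 7 and 4, and in the CpG-poor class 6.5 and 2. The 79 other endothelial genes had a median of 5. Among markers of other cells it was 12 for cortex, 6 for chromaffin, 5 for mural and 3.5 for macrophage markers. Fibroblast markers and blood and platelet markers had 3 each. The 33 genes had 212 such regions in all, none counted for more than 1 of these genes. By their midpoints, 101 lay in introns, 84 between genes and 27 in exons. For 127 of the 212 the nearest TSS of a protein-coding gene belonged to the endothelial gene itself, so 85 lay nearer to another gene. Their median signal was 0.940 in replicate 1 and 1.14 in replicate 2, above the 0.721 and 0.915 of all shared distal regions, and 84% held a footprint in both pools against 78.6%.

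By count within 50 kb, genes without a promoter peak were not poorer in distal regions. Pecam1 and Vwf had 9 each, Nos3 had 8 and Gpihbp1 had 5. The genes open in 1 pool had 8 (Ecscr), 7 (Mmrn2), 6 (Lyve1) and 4 (Tek). The gene itself had the nearest coding TSS for 6 each at Pecam1 and Vwf and 1 each at Nos3 and Gpihbp1. For the genes open in 1 pool it was none at Ecscr, 4 each at Mmrn2 and Tek and 2 at Lyve1. Eng had the most, with 10, of which 2 had Eng as the nearest coding TSS. Kdr and Erg had 9. Ptprb, Dll4, Sox18, Egfl7 and Plvap had 8, and Emcn and Sox17 had the fewest, with 2. The pools did not agree on every count: within 50 kb of Nos3 replicate 1 had 27 distal peaks and replicate 2 had 12, of which 8 regions were shared.

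**Figure D4:**
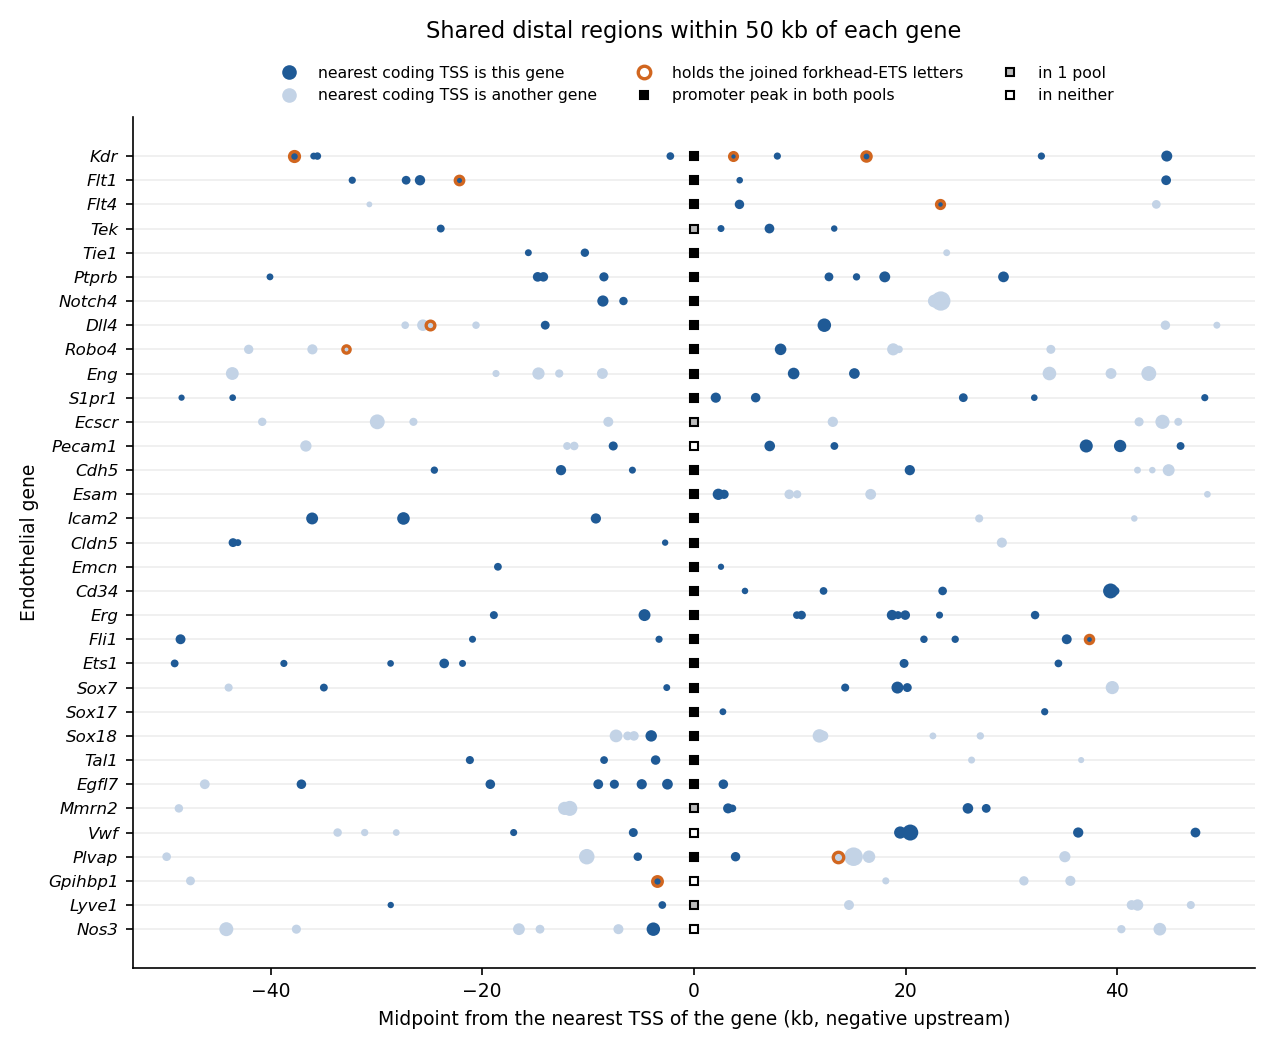
Midpoints of the 212 shared distal regions from the nearest TSS of each endothelial gene (horizontal axis in kb, negative upstream), 1 line per gene, with point area increasing with mean signal. Dark points have that gene as the nearest coding TSS, orange rings hold the joined forkhead and ETS letters, and squares at 0 show whether the promoter was open in both pools (black), 1 (grey) or neither (white).

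Of the 8 genes with the strongest regions nearby, 6 had a strongest region that lay nearer to another gene. The highest, at chr17:34587461-34587740 (mm10), overlapped an exon of Notch4 with signals of 5.26 and 6.42, but its nearest coding TSS was that of Gpsm3. The next, at chr8:71496521-71496800, lay 15091 bp downstream of the Plvap TSS in an intron of Gtpbp3, with 4.99 and 5.76 and the letters CCGGAA. The strongest region near Mmrn2 (3.05 and 3.83) was nearest to Fam25c, that near Eng (2.76 and 3.97) lay in an intron of Fpgs, that near Ecscr (2.72 and 3.96) was nearest to Tmem173, and that near Nos3 (2.48 and 3.39) lay in an intron of Kcnh2. Proximity does not assign these regions to either gene.

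Regions for which the endothelial gene had the nearest coding TSS were present at 32 of the 33 genes, with Ecscr the exception. Vwf had the strongest, in its own intron at chr6:125573301-125573520, 20448 bp from the nearest TSS, with 3.17 in replicate 1 and 4.73 in replicate 2, 3 footprints shared by the pools and the AP-1 letters TGACTCA. Cd34 followed, with 3.48 and 3.31 at chr1:194978121-194978380, 39376 bp downstream of its nearest TSS. Dll4 had 2.36 and 3.08 at 12327 bp, and Nos3 had 2.29 and 3.10 at -3829 bp (chr5:24360841-24361120). Pecam1 had 2.16 and 2.90 in an intron at chr11:106678061-106678300. At 22 of the 25 genes with a promoter peak in both pools, the strongest such region had a higher mean signal than the promoter (88%), against 19.1% of all genes with a promoter peak in both pools. It was 11 of 13 CpG-rich genes against 15.6%, and 11 of 12 CpG-poor genes against 32.8%. Both the weak promoters and the number of distal regions of these genes, given above, enter this count.

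Several of these regions lay close to well-known genes. Erg had 1.95 and 2.16 in an intron at -4663 bp from a TSS, against promoter signals of 0.282 and 0.520. Tal1 had 1.18 and 1.22 at -3615 bp. Eng had 2 intronic regions, at 9429 bp (1.96 and 1.94) and 15169 bp (1.61 and 1.59), both with CCGGAA and both alike in the pools. Tek, whose promoter had a peak in replicate 2 alone, had an intronic region of 1.23 and 1.32 at 7143 bp. Gpihbp1, with no promoter peak, had 1.45 in replicate 1 and 0.991 in replicate 2 at -3487 bp.

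ETS letters were more common, and AP-1 letters less common, in the 212 regions than in the 71494 shared distal regions of the genome. Letters were searched on both strands within 75 bases of the midpoint. CCGGAA was in 13 of the 212 regions (6.13%) against 2.91%, ACAGGAA in 21 (9.91%) against 6.56%, and AACAGGAA, which contains ACAGGAA, in 10 (4.72%) against 1.88%. AACAAT was in 16 (7.55%) against 5.38%. TGACTCA, the AP-1 letters, was in 24 (11.3%) against 19.1%. The NR5A1 letters TCAAGGTCA of the steroidogenic factor SF-1 were in 3 (1.42%) against 2.16%, and AGATAA, the GATA letters, in 8.02% against 9.55%, but both orders turned when whole regions were searched (2.83% against 2.69%, and 16.5% against 14.7%). GGGCGTG (KLF) was in 2.36% against 1.38%, and the NFI motif in 2.83% against 2.43%. The E-box letters CAGCTG and CAGATG were in 13.7% each, against 13.4% and 14.7%. The order for CAGCTG also turned over whole regions (18.9% against 20%). These are counts of letters, not of bound factors.

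**Figure D5:**
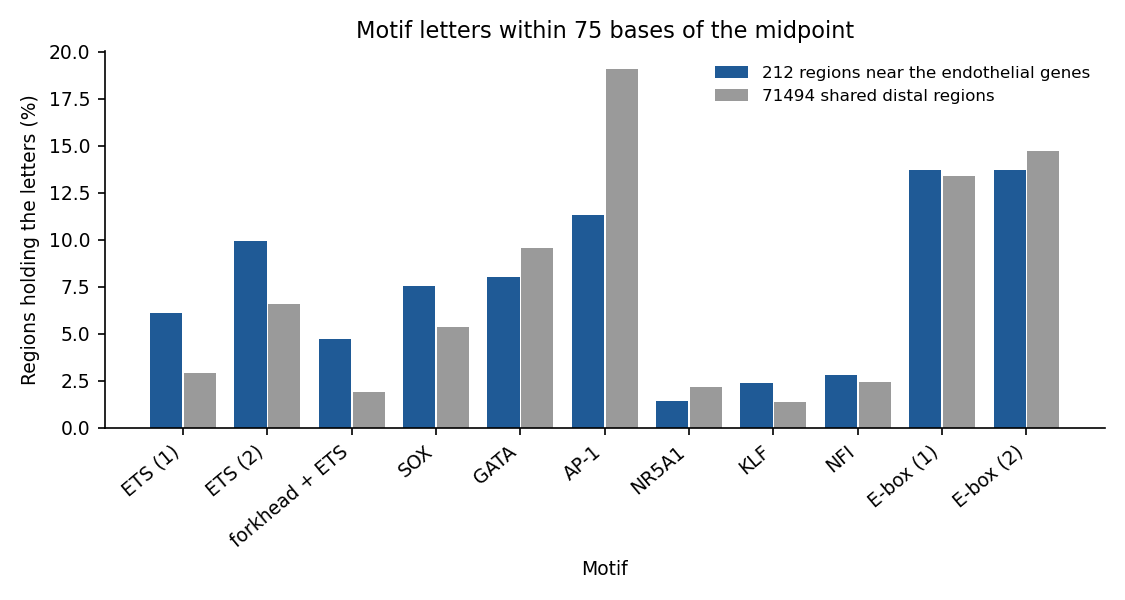
Percent of regions that hold each motif's letters within 75 bases of the midpoint (vertical axis) for the 212 regions near the endothelial genes (blue) and all 71494 shared distal regions (grey), in this order: the ETS letters CCGGAA and ACAGGAA, the joined forkhead and ETS letters, SOX, GATA, AP-1, NR5A1, KLF, NFI and E-box. The first 4 stand higher near the endothelial genes, and AP-1 stands lower, at 11.3% against 19.1%.

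The 10 regions with AACAGGAA lay near Kdr (3 regions), Flt1, Flt4, Dll4, Robo4, Fli1, Plvap and Gpihbp1. Of these, 4 sequences are shown: the pair at Kdr and the region at Dll4 where a footprint covered the letters, and the region at Gpihbp1, the strongest one nearest to a gene with no promoter peak. Capitals mark AACAGGAA, again with 30 bases on each side.
Kdr, intron, chr5:75962218-75962285, plus strand: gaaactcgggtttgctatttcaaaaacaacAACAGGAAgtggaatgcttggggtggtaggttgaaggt
Kdr, upstream, chr5:76016211-76016278, plus strand: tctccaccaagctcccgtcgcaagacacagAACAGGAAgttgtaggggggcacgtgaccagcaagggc
Dll4, upstream, chr2:119300909-119300976, plus strand: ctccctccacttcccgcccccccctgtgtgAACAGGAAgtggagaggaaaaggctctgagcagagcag
Gpihbp1, upstream, chr15:75593168-75593235, minus strand: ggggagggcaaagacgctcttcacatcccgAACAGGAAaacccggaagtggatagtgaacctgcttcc

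The Kdr intron region lay 16277 bp from the TSS with signals of 1.05 and 1.17, and its letters were in a footprint in replicate 1. The Kdr upstream region, at -37803 bp, had 1.39 and 1.24 and a footprint over the letters in replicate 2. The Dll4 region, at -24893 bp and nearest to the TSS of Vps18, had 0.974 and 0.935 and a footprint over the letters in both pools. At Gpihbp1 the window also held CCGGAA, and no footprint covered AACAGGAA in either pool.

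Over all shared distal regions the median log2 ratio of replicate 2 over replicate 1 was 0.34, and over the 212 regions near the endothelial genes it was 0.22, with 135 of the 212 below the all-region median. The median was -0.01 for the 13 regions with CCGGAA, of which 11 lay below the all-region median, and -0.01 for the 21 with ACAGGAA, of which 20 did. All 10 with AACAGGAA lay below it. For the 16 with AACAAT the median was 0.03, and 15 lay below. Over all shared distal regions with the same letters, those near the endothelial genes included, the medians were 0.31 for CCGGAA, 0.25 for ACAGGAA, 0.22 for AACAGGAA and 0.30 for AACAAT, and the shares below the all-region median were 52.7%, 59.2%, 60% and 53.7%. Other letters also gave low medians near the endothelial genes: 0.09 for GATA, with 13 of 17 below (0.29 over all such regions), and 0.17 for CAGATG and 0.22 for CAGCTG, with 20 of 29 below each (0.34 and 0.33). The 3 regions with NR5A1 letters lay below too, and NFI had 3 of 6. Regions with AP-1 letters had a median of 0.41, with 10 of 24 below, against 0.42 over all such regions. KLF had 0.41, with 2 of 5 below. Over all regions with the same letters, the shares below were 54.9% for GATA, 49.8% for CAGATG, 51.1% for CAGCTG and 55.4% for NR5A1. For NFI, AP-1 and KLF they were 47.8%, 40.2% and 44.4%. Several of the 212 regions sit near the same gene, and some hold more than 1 of the motifs, so they are not independent.

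Footprints over the letters were few. Of 516 footprints in the 212 regions in replicate 1, 10 (1.94%) held CCGGAA within 10 bases of their edges, against 0.735% over all shared distal regions. In replicate 2 it was 8 of 539 (1.48%) against 0.727%. For AP-1 the shares were 18 of 516 (3.49%) against 6.03%, and 18 of 539 (3.34%) against 6.94%. AACAGGAA was in 4 of 516 (0.775%) against 0.232% in replicate 1, and in 3 of 539 (0.557%) against 0.26% in replicate 2. The KLF letters were in 3 (0.581%) against 0.499% in replicate 1, and in 6 (1.11%) against 0.489% in replicate 2. Footprint shares of ACAGGAA and AACAAT lay nearer to those of the genome. ACAGGAA was in 1.16% against 0.919% in replicate 1 and 0.928% against 0.919% in replicate 2, and AACAAT in 0.969% against 0.838% and 0.928% against 0.871%, on counts of 5 or 6.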

How the data were processed

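DNase-seq files of 2 pooled libraries of 1 group were used, on mm10 (GRCm38) per the labels. Each peak's signal is the authors' deposited value, and how it was scaled, the sequencing depth, the aligner and the peak caller were not stated in the sources used, so no depth interval is given. The authors deposited a longer and a shorter peak list per library; the longer was used. Every footprint carried the same deposited value, 0.01, so footprints were only counted. The authors' deposited FDR table (q-value per base) lists values under 0.05 only.

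Genes and TSSs came from GENCODE M21 basic (77221 TSSs). A promoter was CpG-rich where, within 250 bases of a TSS, GC was at least 50% and the observed to expected CpG ratio at least 0.6; a gene counts as CpG-rich if any TSS is. Shared regions are merged peaks with an overlap of at least 1 bp (96584, of which 71494 distal). Every gene of the 33 was named; details went to the 8 strongest promoters, the genes lacking a promoter peak, the 8 genes with the most distal regions (ties included) and the strongest regions. The genes, lists and motifs were chosen with earlier results of these data known. Python 3.11.15, numpy 2.4.6 and pysam 0.24.0 were used. The scripts were checked on simulated peaks for 400 genes with known answers, all of which were recovered. No test was run, since there is 1 group of 2 libraries. The sequence of 1 promoter window is not reported here.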

Additional observations from a re-analysis of the deposited data

How the results depend on the processing

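No paired analysis was possible because there is 1 group and no test. The count of genes with a promoter peak in both pools was 25, fell to 16 with the shorter list, and lay between 23 and 25 with promoters of 500 bp or 2 kb, equal peak numbers, peaks near other coding genes left out, or coding transcripts alone. Over all protein-coding genes the share ran from 51.8% to 64.5% in these settings. Replicate 1 alone gave 26 (78.8% against 62.9% of all genes) and replicate 2 alone 28 (84.8% against 65.3%). CpG-poor genes kept a higher share than their class in every setting tried, from 8 of 20 (40% against 21.3%, shorter list) to 15 of 20 (75% against 31.6%, replicate 2 alone). A CpG ratio of 0.75, chosen after seeing the data, gave 18 of 26 (69.2% against 39.9%). The CpG-rich count of 13 moved to 8 with the shorter list (61.5%, against 87.1% of the class) and to 7 of 7 with a ratio of 0.75 (against 94.2%). The mean of the pools' median promoter signals, 0.957, became 1.35 as a sum over peaks, 0.858 with the nearest peak and 0.921 with 500 bp, and 0.951 to 0.962 in single pools. The median log2 ratio ran from 0.07 to 0.22 (sum), always under that of all genes (0.38 to 0.44). The distal median of 7 was 4 with the shorter list (2 over all genes), 4 within 25 kb (1) and 12 within 100 kb (7), and 8 to 10 in single pools. Within 100 kb, 4 regions were counted for more than 1 gene. Footprints shared by the pools were 282 by overlap and 10 with the same start and end, so few footprints repeated both edges. AACAGGAA was in 7.08% of whole regions (3% over all) and 5.79% within 25 kb. Over whole regions NR5A1 (2.83% against 2.69%) and GATA (16.5% against 14.7%) letters turned from below to above the genome. The E-box letters CAGCTG turned from above to below it (18.9% against 20%), and AP-1 stayed under it (15.6% against 22.8%).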
